A study of Mus musculus with 12 samples.

Results

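The lysosomal genes described here are 37 genes that encode enzymes and membrane proteins of the lysosome, taken from a list of symbols and matched to Ensembl gene IDs in a table of 24187 genes from mouse liver. All 37 were found under 1 ID each, and all 37 passed the filter on low counts, which left 22581 genes for testing. By role they were 11 proteases, 7 enzymes that cut sugars or sulfate from glycans, 7 proteins of lipid breakdown and transport, 8 membrane proteins, 2 parts of the proton pump and 2 regulators. The level of every gene is given as CPM, its count per 1000000 counts of the library, after scaling by TMM factors, which correct the library size for differences in composition. A gene was called changed at a Benjamini-Hochberg FDR under 0.05 in edgeR's quasi-likelihood test over all genes.

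The livers came from mice aged 10 to 12 weeks, in 3 groups. The series' design text gives the strain as C57BL/6J, and the study's methods give both C57BL/6J and C57BL6/JOlaHsd. Per the labels the 3 control livers were from untreated mice. The other 9 mice were injected with acetaminophen (APAP, paracetamol), an overdose of which kills hepatocytes around the central veins. The labels give a dose of 350 mg/kg for these livers, but the study also ran a severe model at a higher dose and shows the sequencing beside it, so the dose these mice had is uncertain. At 16 h after APAP, 5 of these mice received the vehicle, PBS, and 4 received hAAM, human alternatively activated macrophages, which were grown from blood monocytes of a donor with CSF-1, stimulated with IL-4 and IL-13 and given into a vein. Human cells in a mouse host and a single time point limit the model, and the study's methods give 36 h after APAP for tissue collection, where the figure legend of the severe model gives 32 h. A whole piece of frozen liver was sequenced after removal of ribosomal RNA, so fewer cells of a type and less RNA per cell cannot be told apart in any value below. Total counts per liver were 60870399 to 74056505 in the control group, 50859599 to 61826952 in the vehicle group and 47391650 to 55379420 in the hAAM group.

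The libraries named hAAM replicate 4 and vehicle replicate 3 stood apart from the rest in how close they were to each other. Their counts differed by 1.19 times the counting noise, against 2.41 to 5.42 times in the other 35 pairs of injured livers, and 32 of the 37 lysosomal genes differed by under 10% between them. The largest difference of this pair was 1.33-fold, in Ctsk. The labels give them as separate samples of different groups, so both were kept, and counts of called genes are also given without both.

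Lysosomes are acidic organelles in which hydrolases, made in the endoplasmic reticulum and mostly sorted by a mannose 6-phosphate tag, digest proteins, glycans and lipids from outside and inside the cell. A proton pump, the V-ATPase, acidifies the lumen, and heavily glycosylated membrane proteins such as LAMP1 and LAMP2 line the limiting membrane. The transcription factor TFEB and its relatives raise many of these genes together by binding a short palindrome near their start sites, and macrophages, which digest engulfed dead cells, are rich in lysosomes.

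The palindrome was looked for in the promoters, because it is the sequence that the lysosomal genes are best known to share. RefSeq promoter windows of the GRCm38.p6 build, from 250 bases before to 50 bases after a start site, were on hand for 31 of the 37 genes. The 6-letter core CACGTG, which reads the same on both strands, was present in 8 of these 31 genes (25.8%), against 8.09% of all 27025 genes with a window. These were Lamp1, Gla, Lgmn, Ctsd, Mcoln1, Ctsa, Glb1 and Ctsl. The longer 10-letter form GTCACGTGAC, which contains the core, was searched for as an exact match, so near matches were not counted. It was in none of the 31 and in 0.37% of all genes, a share at which 31 genes would seldom hold any. Stretches before the start site that RefSeq gives are shown for 5 of the genes with a core, with the core in capitals and 1 core of Gla, Ctsd and Mcoln1 each, and for Cd68 and Cd63, which had the largest rises after APAP and no core in their windows. They are written 5′ to 3′ along the strand of the gene. The Lamp1 stretch lies at chr8:13159086-13159156 on the plus strand and holds 4 cores, the most in any of the 31 genes. The others are Gla at chrX:134601215-134601244 (minus strand), Lgmn at chr12:102439107-102439167 (minus), Ctsd at chr7:142387908-142387937 (minus), Mcoln1 at chr8:3500428-3500457 (plus), Cd68 at chr11:69666185-69666245 (minus) and Cd63 at chr10:128909270-128909330 (plus). In GENCODE the Lgmn and Cd63 stretches lie in introns, the Ctsd stretch in the first exon of a longer transcript and the Gla stretch in an exon of the neighbouring gene Hnrnph2.
Lamp1: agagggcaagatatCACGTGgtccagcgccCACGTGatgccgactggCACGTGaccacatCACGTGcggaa
Gla: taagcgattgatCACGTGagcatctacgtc
Lgmn: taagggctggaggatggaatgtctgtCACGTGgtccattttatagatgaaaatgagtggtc
Ctsd: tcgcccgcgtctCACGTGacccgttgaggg
Mcoln1: ttagaaagggtcgcgcttgtCACGTGttca
Cd68: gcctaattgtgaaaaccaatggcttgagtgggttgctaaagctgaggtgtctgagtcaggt
Cd63: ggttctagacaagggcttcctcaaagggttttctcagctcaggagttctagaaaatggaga

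Of the 8 genes with a core, Gla and Lgmn rose after APAP in both treatment groups, Ctsd was called higher in the hAAM livers, a call lost in 7 of 21 alternatives, and was not called in the vehicle livers, although it was in 8 of 21 alternatives, and Lamp1 was called lower in the vehicle livers, a call that was lost in 12 of 21 alternatives and whose sign turned with library size alone, whereas Mcoln1, Ctsa, Glb1 and Ctsl were not called in either comparison with control. Over all 37 genes, with or without a core, 11 were called higher and 3 lower with vehicle, and 12 and 1 with hAAM. A link between the core and these changes was not tested. A match of letters is a description of these windows and was not a test of binding.

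In livers injured with APAP and given vehicle, 14 of the 37 lysosomal genes were called against control, 11 higher and 3 lower. Of all genes tested, 29.8% were called, 15.0% higher and 14.8% lower. The rises were led by the macrophage protein Cd68 and the tetraspanin Cd63, then by the proteases Lgmn and Ctss, the membrane protein Laptm5 and the glycan enzymes Galns and Gla. The falls were Smpd1, Lamp2 and, with a sign that turned when library size alone was used for scaling, Lamp1. The median log2 fold change was 0.12 over the 37 genes and 0.01 over all genes. With both livers of the near-identical pair left out, 15 of the 37 were called, in a fit whose share over all genes is not given here. Scaled by library size alone, which moved the median of all genes to 0.36, 26 were called higher and 1 lower, beside 8637 and 1110 of all genes, so directions here are relative to the bulk of genes.

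In livers given hAAM, 13 of the 37 were called against the same 3 control livers, 12 higher and 1 lower. Of all genes tested, 20.7% were called, 10.7% higher and 9.96% lower. The median log2 fold change was 0.21 over the 37 genes and 0.02 over all genes. Smpd1 was the gene called lower. Without the near-identical pair, 14 were called, in a fit whose share over all genes is not given here. With library size alone 23 were called higher and 1 lower, beside 6559 and 781 of all genes. Both comparisons use the same control livers, so their values are given side by side and their likeness is not a result.

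**Figure D1:**
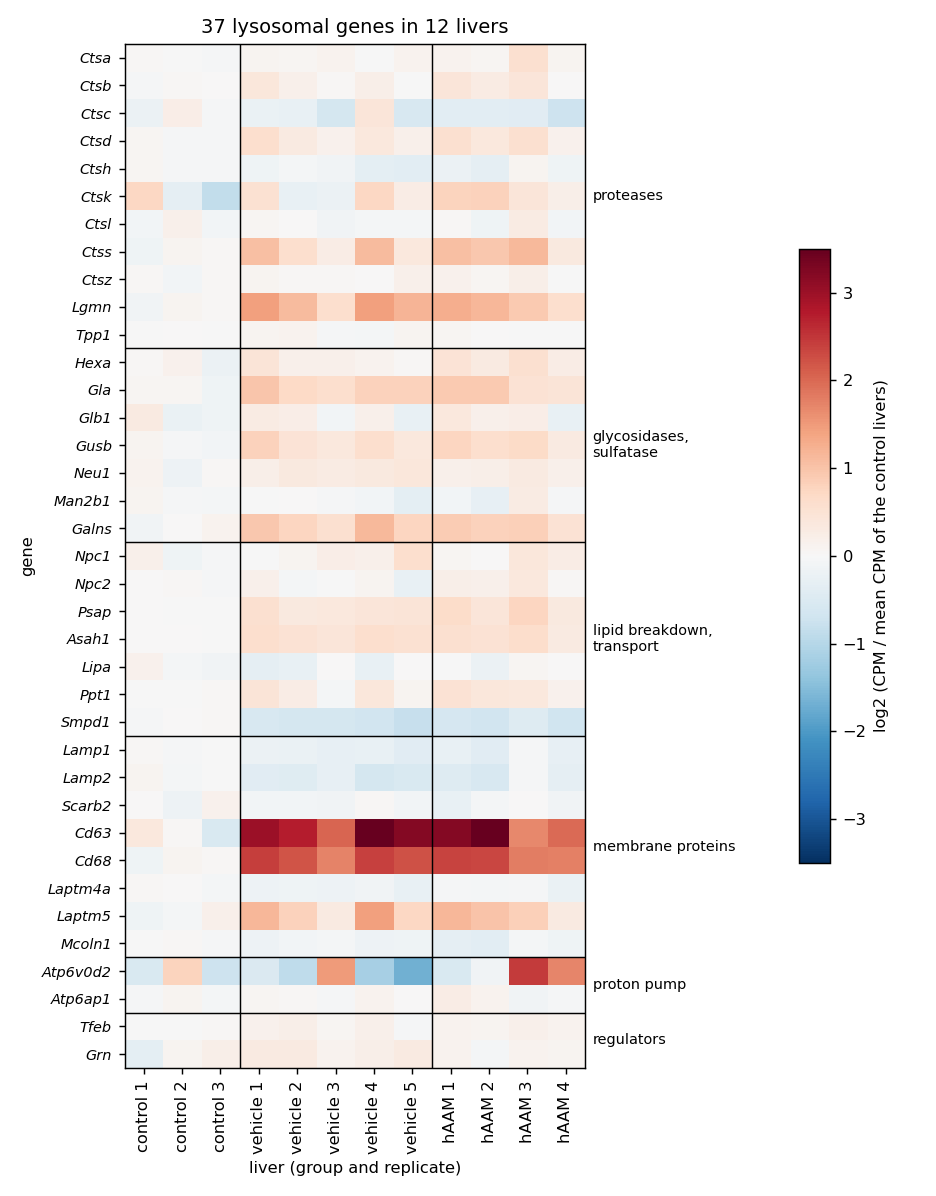
Level of each of the 37 lysosomal genes (rows, grouped by role) in each of the 12 livers (columns), as the log2 ratio of its CPM to the mean of the control livers, with red higher and blue lower. Cd68 and Cd63 are red in all 9 injured livers and Smpd1 is blue in all 9, while most proteases stay near white.

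**Figure D2:**
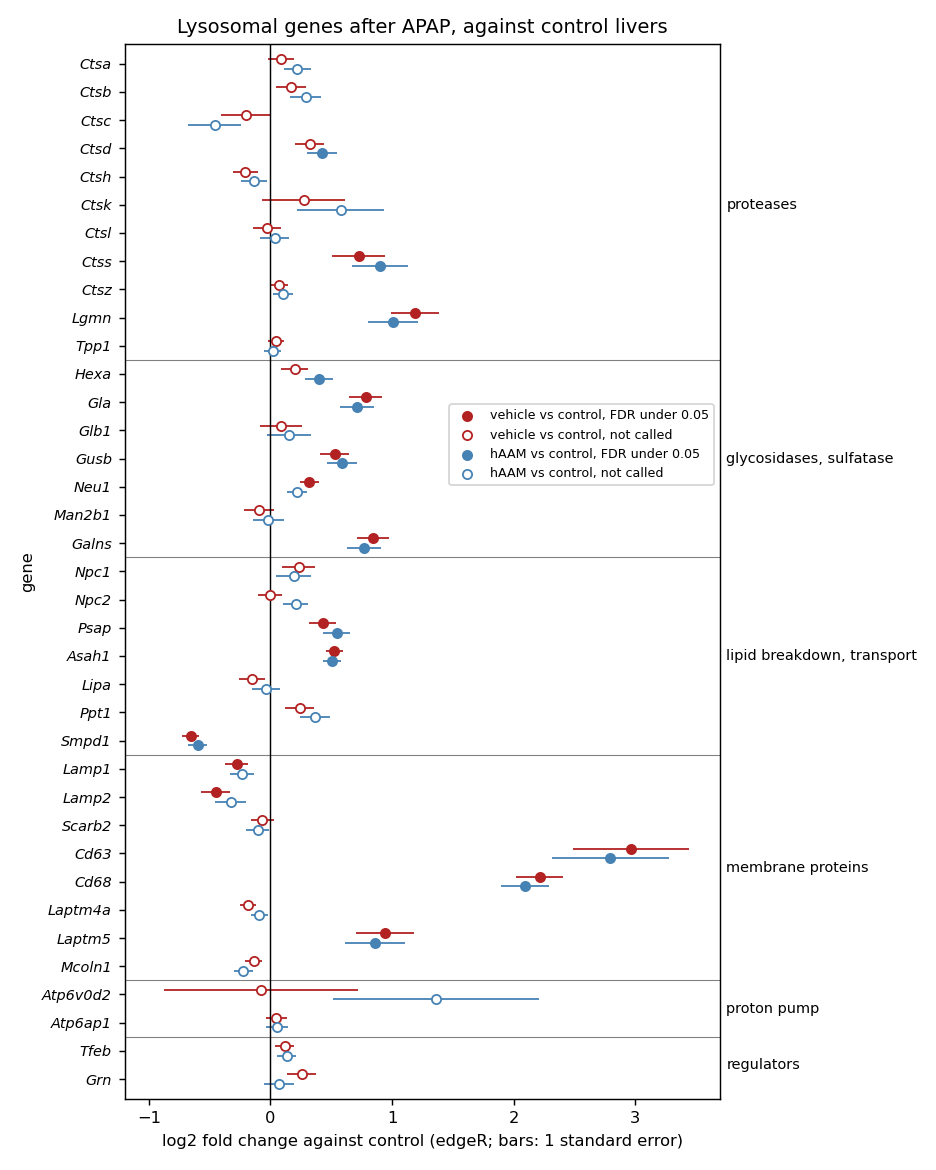
Log2 fold change of each lysosomal gene against the control livers (x axis) with 1 standard error, in red for vehicle and blue for hAAM, with filled points at an FDR under 0.05. Cd63 and Cd68 lie farthest to the right, at 2.97 and 2.21 with vehicle, and Smpd1 lies farthest to the left among the called genes, at -0.66.

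Among the membrane proteins, 3 of 8 were called higher and 2 lower with vehicle, and 3 were called higher with hAAM. The shares of all genes that stand beside this and each further count by role are 15.0% higher and 14.8% lower with vehicle, and 10.7% higher and 9.96% lower with hAAM. Cd68, also called macrosialin, is a lysosome-associated membrane protein of macrophages (chr11:69664213-69666153, GRCm38). It stood at 8.54, 10.1 and 9.84 CPM in the control livers, 51.1, 43.3, 31.6, 50.1 and 44 CPM in the vehicle livers and 49.3, 47.6, 33 and 32.1 CPM in the hAAM livers. Every injured liver was above every control liver. With vehicle its log2 fold change against control was 2.21 ± 0.19 (SE, FDR = 4.44e-05), and with hAAM 2.09 ± 0.20 (FDR = 1.27e-04). Per kb of exon, its level ranked 25 of 37 in control livers and 11 of 37 in vehicle livers.

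Cd63 encodes a tetraspanin of late endosomes, lysosomes and exosomes (chr10:128900989-128912822). It measured 4.5, 3.57 and 2.39 CPM in the control livers, 27.8, 23.3, 14.4, 38.9 and 32.2 CPM in the vehicle livers and 32.5, 39.3, 11.2 and 13.8 CPM in the hAAM livers. No injured liver overlapped the control livers, and the spread within the injured groups was wide, with hAAM replicates 3 and 4 and vehicle replicate 3 the lowest. On the log2 scale it differed from control by 2.97 ± 0.48 (SE, FDR = 0.00123) with vehicle and by 2.79 ± 0.48 (FDR = 0.00327) with hAAM. These were the largest changes of the 37 genes, from a low level that ranked 35 of 37 per kb in control livers.

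Laptm5 encodes a lysosomal membrane protein of white blood cells (chr4:130913125-130936141). Its values were 22.8, 24.1 and 28.5 CPM in the control livers, 56.6, 43.9, 31.4, 67.7 and 41.8 CPM in the vehicle livers and 56, 50.1, 44.9 and 31.4 CPM in the hAAM livers. All injured livers lay above the control livers, vehicle replicate 3 and hAAM replicate 4 by the least. This gave log2 fold changes of 0.94 ± 0.24 (SE, FDR = 0.0114) for vehicle and 0.86 ± 0.24 (FDR = 0.028) for hAAM. With hAAM, the call was lost when any 1 control liver, hAAM replicate 1 or hAAM replicate 2 was left out.

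LAMP1 and LAMP2 are the most abundant proteins of the lysosomal membrane, and LAMP2 also takes part in autophagy. Lamp2 (chrX:38401357-38456454) was measured at 579.6, 515 and 538 CPM in the control livers, 410.2, 403, 445, 356 and 379 CPM in the vehicle livers and 395, 372, 529.7 and 441 CPM in the hAAM livers. The vehicle livers were all below the control livers, but hAAM replicate 3 lay within the control range. edgeR put the log2 fold change at -0.45 ± 0.12 (SE, FDR = 0.0159) for vehicle and -0.33 ± 0.13 (FDR = 0.0895) for hAAM against control. The call with vehicle was lost without control replicate 1 and when library size alone was used (log2 fold change -0.11). With hAAM, Lamp2 became called lower without hAAM replicate 3.

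Lamp1 (chr8:13159161-13175338) was at 405, 387 and 392 CPM in the control livers, 344, 336, 321, 329 and 297 CPM in the vehicle livers and 329.9, 298, 387 and 326 CPM in the hAAM livers. Both injured groups lay below the control livers, although the highest hAAM liver and the lowest control liver differed by less than 1 CPM. In log2, vehicle differed from control by -0.28 ± 0.09 (SE, FDR = 0.0436) and hAAM by -0.24 ± 0.10 (FDR = 0.11). With hAAM, Lamp1 became called lower with DESeq2 and without hAAM replicate 3. The fall with vehicle was at the edge of the threshold: it was not called in 10 of the 12 fits that left out 1 liver (log2 fold change -0.30 to -0.24), nor without the near-identical pair, and with library size alone its sign turned, to 0.07. Of its annotated exon bases, 9.31% overlap the neighbouring gene Grtp1, and how the counting treated such reads is not stated.

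The other membrane proteins were called in neither comparison. Scarb2, the receptor that carries glucocerebrosidase to lysosomes, was at 203 to 253 CPM in control, 209 to 238 CPM in vehicle and 193 to 229.8 CPM in hAAM livers. Laptm4a had a log2 fold change of -0.18 ± 0.07 with vehicle (FDR = 0.0615) and its vehicle livers did not overlap the control livers. Mcoln1, the calcium channel of lysosomes, had log2 fold changes of -0.14 (FDR = 0.167) with vehicle and -0.22 (FDR = 0.0573) with hAAM, and lay below the control range in all 9 injured livers.

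Of the 11 proteases, 2 were called higher with vehicle, a share near the 15.0% of all genes, 3 were called higher with hAAM, beside 10.7% of all genes, and none was called lower. Lgmn encodes legumain, which cuts after asparagine and helps to mature cathepsins (chr12:102394084-102439813). It stood at 53.6, 61.9 and 59.6 CPM in the control livers, 159, 125, 88.3, 158 and 134 CPM in the vehicle livers and 141, 131, 109.6 and 87.3 CPM in the hAAM livers. The groups did not overlap control, and the lowest injured values were those of the near-identical pair. Against control the log2 fold change was 1.19 ± 0.20 (SE, FDR = 0.00149) with vehicle and 1.01 ± 0.20 (FDR = 0.00652) with hAAM.

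Ctss encodes cathepsin S, the protease of antigen-presenting cells that trims the invariant chain (chr3:95526786-95556403). It was at 24.5, 28.9 and 27.8 CPM in the control livers, 56.2, 40.7, 32.7, 58.8 and 35.3 CPM in the vehicle livers and 55.9, 52.1, 59.6 and 34.2 CPM in the hAAM livers. All 9 injured livers were above control, although vehicle replicates 3 and 5 and hAAM replicate 4 were near it. With vehicle its log2 fold change against control was 0.73 ± 0.22 (SE, FDR = 0.0269), and with hAAM 0.90 ± 0.23 (FDR = 0.018). The call with vehicle was lost without any 1 of the 3 control livers, vehicle replicate 1 or vehicle replicate 4, and that with hAAM without control replicate 1 or 3.

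Ctsd encodes cathepsin D, the main aspartic protease of lysosomes (chr7:142375911-142388038). It measured 131, 122 and 122 CPM in the control livers, 188, 155, 139, 161 and 141 CPM in the vehicle livers and 186, 162, 186 and 140.5 CPM in the hAAM livers. Each injured liver was above each control liver. On the log2 scale it differed from control by 0.32 ± 0.12 (SE, FDR = 0.0587) with vehicle and by 0.43 ± 0.12 (FDR = 0.0309) with hAAM. It passed the threshold in 1 of these comparisons, and the difference between the treatments was 0.10 ± 0.11 (FDR = 0.984). With vehicle it became called in 8 of 21 alternatives, among them DESeq2, library size alone and the fit without the near-identical pair. With hAAM the call was lost without any 1 control liver or hAAM replicate 1, 2 or 3, and in the fit of only the 2 groups compared. Gene Gm49369 shares 34.4% of its exon bases.

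The other abundant cysteine proteases were not called. Ctsb, cathepsin B (chr14:63122462-63145923), was at 470.4, 499 and 487 CPM in the control livers, 644, 548, 497, 563 and 482 CPM in the vehicle livers and 646, 588, 647 and 491 CPM in the hAAM livers. The injured livers ranged from within the control range to above it. This gave log2 fold changes of 0.17 ± 0.12 (SE, FDR = 0.312) for vehicle and 0.29 ± 0.13 (FDR = 0.128) for hAAM. Ctsl, cathepsin L (chr13:64359337-64370890), was at 435, 529.8 and 437 CPM in the control livers, 487, 474, 431, 447 and 448 CPM in the vehicle livers and 485, 423, 568 and 437 CPM in the hAAM livers. Its groups overlapped. edgeR put the log2 fold change at -0.03 ± 0.11 (SE, FDR = 0.86) for vehicle and 0.03 ± 0.12 (FDR = 0.869) for hAAM against control.

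Cathepsin C, the activator of granule serine proteases of neutrophils and lymphocytes, is encoded by Ctsc. This gene had log2 fold changes of -0.20 (FDR = 0.498) with vehicle and -0.46 (FDR = 0.151) with hAAM, and it ranged widely within the vehicle group, at 86.6 to 177 CPM. Ctsh, an aminopeptidase, was at 161 to 175 CPM in control and 129 to 158 CPM in vehicle livers, without overlap, and was not called, at a log2 fold change of -0.21 (FDR = 0.154). Ctsz, encoding a carboxypeptidase and at rank 3 of 37 per kb in all 3 groups, had log2 fold changes of 0.07 and 0.10. For the tripeptidyl peptidase gene Tpp1 they were 0.05 and 0.02. The carboxypeptidase gene Ctsa, which protects neuraminidase and galactosidase, had log2 fold changes of 0.09 with vehicle and 0.22 with hAAM. Ctsk, the collagen-cutting protease of osteoclasts, was the lowest of the 37 genes per kb in control livers, with 31 to 126 counts per liver, and its log2 fold changes of 0.27 ± 0.34 and 0.58 ± 0.36 had wide errors.

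**Figure D3:**
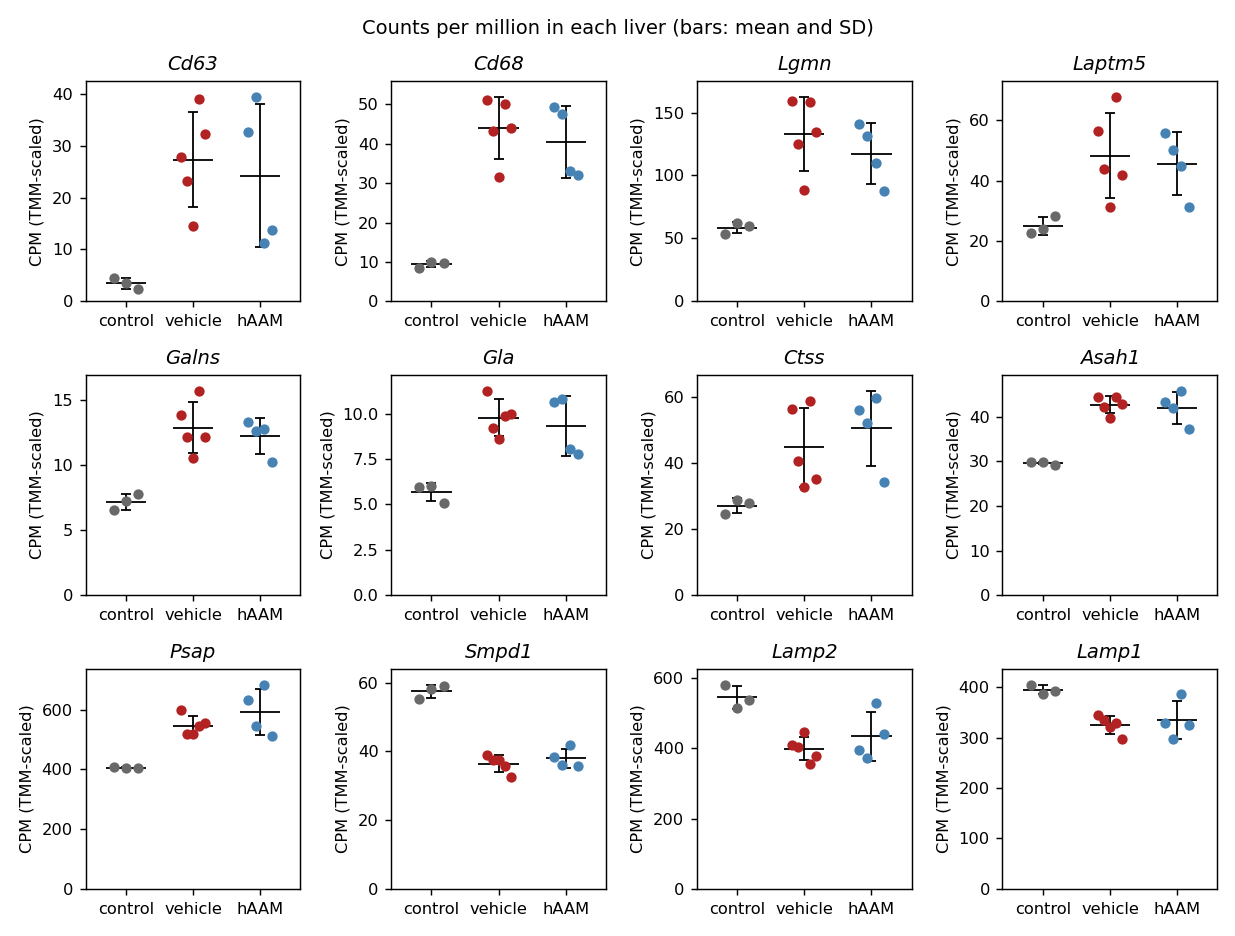
CPM of 12 lysosomal genes in every liver, one point per liver, with the group mean and SD as bars (control n = 3, vehicle n = 5, hAAM n = 4). The injured livers lie above control for the 9 genes from Cd63 to Psap and below it for Smpd1, while in Lamp2 and Lamp1 the highest hAAM liver reaches or nearly reaches the control livers.

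Of the 7 enzymes that digest glycans, 4 were called higher with vehicle (15.0% of all genes) and 4 with hAAM (10.7% of all genes), and none was called lower. Galns encodes the sulfatase that removes sulfate from keratan and chondroitin sulfate (chr8:122578242-122611463). It was at 6.54, 7.24 and 7.75 CPM in the control livers, 13.9, 12.1, 10.5, 15.7 and 12.1 CPM in the vehicle livers and 13.3, 12.6, 12.8 and 10.2 CPM in the hAAM livers. The groups did not overlap control. In log2, vehicle differed from control by 0.84 ± 0.13 (SE, FDR = 0.0012) and hAAM by 0.77 ± 0.14 (FDR = 0.00405).

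Gla encodes alpha-galactosidase A, the enzyme missing in Fabry disease (chrX:134588149-134601125). It was at 5.95, 6.01 and 5.1 CPM in the control livers, 11.2, 9.21, 8.58, 9.89 and 10.00 CPM in the vehicle livers and 10.7, 10.8, 8.08 and 7.75 CPM in the hAAM livers. It also showed no overlap with control. Against control the log2 fold change was 0.78 ± 0.14 (SE, FDR = 0.00195) with vehicle and 0.71 ± 0.14 (FDR = 0.00614) with hAAM.

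Gusb encodes beta-glucuronidase (chr5:129989011-130003049). Its values were 27, 24.6 and 23.6 CPM in the control livers, 43.7, 35.2, 32.3, 37.6 and 32.1 CPM in the vehicle livers and 42, 37.8, 39.7 and 31.1 CPM in the hAAM livers. All 9 injured livers were higher than the 3 control livers. With vehicle its log2 fold change against control was 0.53 ± 0.12 (SE, FDR = 0.00665), and with hAAM 0.59 ± 0.12 (FDR = 0.00805). Galns, Gla and Gusb kept their calls in each fit that left out 1 liver.

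Hexa encodes the alpha subunit of beta-hexosaminidase, which removes a sugar from the ganglioside GM2 (chr9:59539540-59565109). It stood at 31.7, 33.7 and 26.3 CPM in the control livers, 41.5, 34.8, 34.4, 33.4 and 31.4 CPM in the vehicle livers and 42.2, 37.9, 45.3 and 36.3 CPM in the hAAM livers. The vehicle livers overlapped the control livers and the hAAM livers did not. On the log2 scale it differed from control by 0.20 ± 0.11 (SE, FDR = 0.193) with vehicle and by 0.40 ± 0.12 (FDR = 0.0292) with hAAM. The call with hAAM was lost without control replicate 1 or 3 or hAAM replicate 1 or 3 and in the fit of only the 2 groups compared, and 12.8% of its exon bases are shared with Tmem202. Neu1, which cleaves sialic acid, was at 23.8 to 29.3 CPM in control, 30.9 to 35.8 CPM in vehicle and 30.4 to 33.6 CPM in hAAM livers, so neither injured group overlapped control. It was called with vehicle, at 0.32 ± 0.08 (FDR = 0.0108), and not with hAAM, at 0.22 ± 0.08 (FDR = 0.077). The call with vehicle was lost without control replicate 2. For Glb1, beta-galactosidase, and Man2b1, alpha-mannosidase, the log2 fold changes lay between -0.09 and 0.15, and neither was called.

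Of the lipid enzymes and transport proteins, 2 of 7 were called higher and 1 lower in each comparison with control, the 1 lower with vehicle being near the 14.8% of all genes. Psap encodes prosaposin, the precursor of the saposins that help to digest sphingolipids, and was the highest of the 37 genes per kb in all groups (chr10:60277627-60302597). It was at 406 to 407 CPM in control, 517 to 599 CPM in vehicle and 513 to 683 CPM in hAAM livers, with no overlap with control. This gave log2 fold changes of 0.43 ± 0.11 (SE, FDR = 0.0115) for vehicle and 0.55 ± 0.11 (FDR = 0.00714) for hAAM. Asah1, acid ceramidase, was nearly even within groups, at 29.3 to 29.9 CPM in control, 39.8 to 44.4 CPM in vehicle and 37.2 to 45.8 CPM in hAAM livers. edgeR put the log2 fold change at 0.53 ± 0.07 (SE, FDR = 5.44e-04) for vehicle and 0.50 ± 0.08 (FDR = 0.0016) for hAAM against control.

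Smpd1, acid sphingomyelinase, which makes ceramide from sphingomyelin, moved the other way (chr7:105554360-105558389). It stood at 55.3, 58.1 and 58.9 CPM in the control livers, 38.8, 37.5, 37.4, 35.8 and 32.6 CPM in the vehicle livers and 38.2, 36, 41.8 and 35.7 CPM in the hAAM livers. All 9 injured livers lay below all 3 control livers. In log2, vehicle differed from control by -0.66 ± 0.07 (SE, FDR = 1.64e-04) and hAAM by -0.60 ± 0.08 (FDR = 7.13e-04). It remained called lower in each of the 12 fits that left out 1 liver, with DESeq2 and with library size alone, where the log2 fold changes were -0.31 with vehicle and -0.30 with hAAM.

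Npc2 and Npc1 together export cholesterol from the lysosome. Npc2 (chr12:84754562-84773152) was at 50.1, 51.5 and 48.3 CPM in the control livers, 57, 47.8, 49.3, 53 and 41.6 CPM in the vehicle livers and 57.9, 57, 64.3 and 51.8 CPM in the hAAM livers. The vehicle livers spread around the control livers, and the hAAM livers were all above them. Against control the log2 fold change was -0.01 ± 0.10 (SE, FDR = 0.965) with vehicle and 0.21 ± 0.10 (FDR = 0.173) with hAAM. With library size alone the vehicle value turned to 0.34. The log2 fold changes of Npc1 were 0.23 (FDR = 0.223) with vehicle and 0.19 (FDR = 0.368) with hAAM. Lipa, acid lipase, had log2 fold changes of -0.15 (FDR = 0.302) with vehicle and -0.04 (FDR = 0.846) with hAAM. For Ppt1, palmitoyl-protein thioesterase, they were 0.24 (FDR = 0.139) and 0.36 (FDR = 0.0523).

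The proton pump members and the regulators were not called in either comparison. Atp6v0d2 encodes a pump subunit of osteoclasts and macrophages (chr4:19876841-19922605), and stood at 1.7, 4.2 and 1.48 CPM in the control livers, 1.72, 1.3, 6.89, 1.09 and 0.769 CPM in the vehicle livers and 1.7, 2.28, 13.4 and 7.99 CPM in the hAAM livers. The 3 groups overlapped, with hAAM replicate 3 the highest. The log2 fold changes were -0.08 ± 0.80 with vehicle, where the sign turned in 6 of 21 alternatives, and 1.36 ± 0.85 with hAAM (FDR = 0.952 and 0.278). Atp6ap1, an accessory subunit of the pump, had log2 fold changes of 0.05 ± 0.09 and 0.06 ± 0.09. Tfeb, the transcription factor described above (chr17:47737030-47792419), was at 9.17, 9.15 and 9.6 CPM in the control livers, 10.4, 10.8, 9.76, 10.5 and 9.1 CPM in the vehicle livers and 10.2, 10.00, 10.5 and 10.1 CPM in the hAAM livers. The vehicle livers overlapped control, and the hAAM livers were all above it. With vehicle its log2 fold change against control was 0.12 ± 0.08 (SE, FDR = 0.262), and with hAAM 0.13 ± 0.08 (FDR = 0.249). Grn, which encodes progranulin, a secreted protein that is cut in lysosomes, had log2 fold changes of 0.26 (FDR = 0.121) and 0.07 (FDR = 0.73).

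In counts of groups that do not overlap, 12 of the 37 genes had every vehicle liver above every control liver and 6 had every one below, where 17.5% and 17.3% of all genes did. With hAAM, 17 were wholly above and 4 wholly below, where 14.3% and 14.2% of all genes were. Of the summed level of all 37 genes, the control livers held 4534 to 4588 CPM, the vehicle livers 4529 to 5077 CPM and the hAAM livers 4502 to 5479 CPM, and these ranges overlapped. The largest contributors in control livers were Lamp2, Ctsb, Ctsl, Psap and Lamp1.

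Per kb of annotated exon, the order of levels in control livers began with Psap (148 CPM per kb), Lamp1 (148), Ctsz (102), Ctsb (80.2) and Ctsl (72), and ended with Cd63 (0.947), Atp6v0d2 (0.905) and Ctsk (0.740). With vehicle, Psap was at 199 CPM per kb and Lamp1 at 122, and Cd68 had moved from 7.54 to 35. Lgmn moved from rank 14 to rank 8 and Smpd1 from rank 19 to rank 24.

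The question of the treatment itself was addressed by hAAM against vehicle. None of the 37 lysosomal genes was called by edgeR, 1 had an unadjusted p under 0.05, and DESeq2 called 0. Of all genes tested, 0.0% were called, 1133 had an unadjusted p under 0.05, and DESeq2 called 1. In none of the 37 genes were the ranges of the 2 groups apart, which was so in 1.4% of all genes. The near-identical pair puts 1 liver in each group at almost the same level, so overlap was likely beforehand. This count therefore does not speak to the treatment. The log2 fold changes ran from -0.26 in Ctsc to 1.44 in Atp6v0d2, with standard errors from 0.06 to 0.72. The median over the 37 genes was 0.06.

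The gene with the smallest p was Npc2, whose values are given above. All 4 hAAM livers were above the vehicle median, and vehicle replicates 1 and 4 lay within their range. The log2 fold change of Npc2 was 0.22 ± 0.09 (SE, FDR = 0.966). For Hexa, all 4 hAAM livers were again above the vehicle median and the ranges overlapped. The difference was 0.20 ± 0.10 in log2 (FDR = 0.966). For Atp6v0d2 the difference was 1.44 ± 0.72 (FDR = 0.966), hAAM replicates 3 and 4 were the highest of the 9 injured livers, and vehicle replicate 3 was the highest of its group. Leaving out 1 liver at a time, the Atp6v0d2 difference ran from 0.77 to 2.37. Cd68 differed by -0.12 ± 0.16 and Cd63 by -0.17 ± 0.37 (FDR = 0.987 and 0.991). Among the 9 injured livers, hAAM replicate 3 had the highest value for 17 of the 37 genes, and the 2 livers of the near-identical pair for none.

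**Figure D4:**
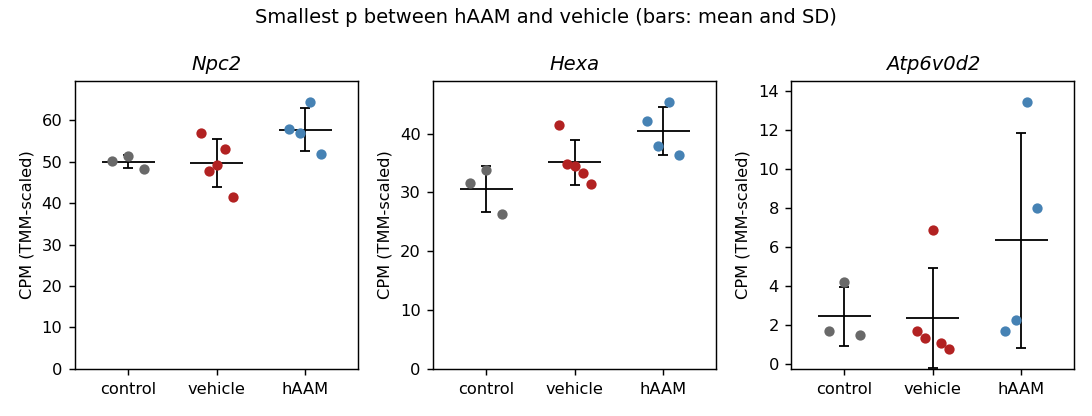
CPM of Npc2, Hexa and Atp6v0d2, the lysosomal genes with the smallest p between hAAM and vehicle, with one point per liver and the group mean and SD as bars. The hAAM and vehicle livers overlap in each gene, and in Atp6v0d2 the 2 high hAAM livers, at 13.4 and 7.99 CPM, lie above every other liver.

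A wider list of other lysosomal genes held 98 genes, of which 97 were in the table and were tested. With vehicle, 40 of these were called against control, 27 higher and 13 lower, and with hAAM 34, 22 higher and 12 lower. Of all genes, 15.0% were called higher and 14.8% lower with vehicle, and 10.7% and 9.96% with hAAM, so the shares called lower were near those of all genes. Their median log2 fold changes were 0.06 and 0.08. With library size alone the counts with vehicle were 63 higher and 3 lower, and with hAAM 56 and 2, beside 8637 and 1110 of all genes with vehicle and 6559 and 781 with hAAM. The count with hAAM fell to between 17 and 22 when any 1 of the 3 control livers, hAAM replicate 1 or hAAM replicate 2 was left out, and that with vehicle to 26 without control replicate 3.

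Among the other hydrolases, 11 of 31 were called higher and 5 lower with vehicle, where 15.0% and 14.8% of all genes were, and 11 were called higher and 1 lower with hAAM, where 10.7% and 9.96% of all genes were. Prcp, a carboxypeptidase, rose by 1.03 on the log2 scale with vehicle and by 1.01 with hAAM. The largest falls among the called genes, as log2 fold changes, were Acp5, tartrate-resistant acid phosphatase, at -0.52 and the peptidase gene Cpq at -0.48, and with hAAM -0.42 and -0.23. All 3 were called with vehicle, and with hAAM all but Cpq. Of 18 other membrane proteins, 5 were called higher and 5 lower with vehicle, and 4 and 6 with hAAM. With vehicle the calcium channel gene Tpcn2 rose by 1.16 and Slc11a1, the phagosome metal transporter of macrophages, by 0.92, on the log2 scale. Abca2 fell by 0.73 and Cd164, an endolysosomal sialomucin, by 0.69. All 4 were called in the same direction with hAAM.

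Of 16 further proton pump genes, 6 were called higher and 1 lower with vehicle, beside the same 15.0% and 14.8% of all genes, and 3 higher and 2 lower with hAAM. The rises with vehicle were led by Atp6ap2 and Atp6v0a1, with log2 fold changes of 0.46 and 0.35, and with hAAM these were 0.34 (FDR = 0.0111) and 0.14 (FDR = 0.43). The gene called lower with vehicle was Atp6v0d1, the widely expressed form of the d subunit, at 56.5 to 57.3 CPM in control and 43.9 to 48.4 CPM in vehicle livers, with a log2 fold change of -0.29 ± 0.07 (FDR = 0.00953) that turned to 0.0592 with library size alone. Of 13 sorting genes 3 were called higher and none lower with vehicle, and 2 and none with hAAM. The rises with vehicle were led by the sorting receptor Sorl1 at a log2 fold change of 1.23 and Gnptab, which encodes the enzyme that starts the mannose 6-phosphate tag, at 0.58. Of 16 genes of TFEB and mTORC1 control, 1 was called higher and 3 lower with hAAM, and with vehicle Lamtor3 was called higher (0.22) and Flcn and Tfe3 lower. Flcn encodes folliculin, through which mTORC1 holds TFEB and TFE3 in the cytoplasm, and fell by 0.80 on the log2 scale with vehicle. Tfe3, a relative of Tfeb, was at 36.3 to 52 CPM in control and 27.2 to 29.4 CPM in vehicle livers, without overlap, and fell by 0.58 (FDR = 0.00317). Another relative, Mitf, had a log2 fold change of -0.02 ± 0.17 and was not called. Of 3 tested inhibitors of lysosomal proteases, Cstb, cystatin B, rose by 1.37, and Cst3 was not called, at -0.08.

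Between hAAM and vehicle, edgeR called none of the 97, with 8 at an unadjusted p under 0.05, and DESeq2 called 0. With DESeq2 and the near-identical pair left out, an alternative chosen after the data were seen, Arsa was called lower in the hAAM livers. Arsa, the sulfatase that digests sulfatide, was at 30.2, 22.3 and 29.9 CPM in the control livers, 42.9, 49.96, 35.4, 43.8 and 49.4 CPM in the vehicle livers and 34.3, 30.9, 30.3 and 33.7 CPM in the hAAM livers. Its 4 hAAM livers lay below all 5 vehicle livers. The ranges of the groups were apart in 5 of the 97 genes (5.15%), where 1.4% of all genes had this, with Arsa, Hgsnat, Sumf1 and Sidt2 lower and Ctso higher in the hAAM livers. The edgeR log2 fold change of Arsa between hAAM and vehicle was -0.46 ± 0.11 (FDR = 0.966), which did not pass the FDR threshold, and Arsa was 1 of the 8 genes at an unadjusted p under 0.05.

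Markers of other cell types were measured in the same livers. Of 11 markers of recruited macrophages, 7 were called higher and 1 lower with vehicle, with Chil3 at 5.67, Gpnmb at 4.54, Trem2 at 2.78 and Ccr2 at 2.62 in log2, and Fabp5, a fatty acid binding protein found in several cell types, the gene called lower, at -2.36. Lyz2, the lysozyme gene of myeloid cells, was at 44.6 to 54.8 CPM in control, 71.7 to 139.8 CPM in vehicle and 70.9 to 204 CPM in hAAM livers, and had log2 fold changes of 1.15 (FDR = 0.0197) and 1.53 (FDR = 0.0101). The summed level of the 11 markers was 149 to 169 CPM in control, 193 to 547 CPM in vehicle and 191 to 553 CPM in hAAM livers. Spp1, which also marks bile duct cells and is on that list too, was not called and was at 18.1 to 34.1 CPM in control, 31.4 to 253 CPM in vehicle and 31.2 to 195 CPM in hAAM livers. Without Spp1, a sum added after the data were seen, the other 10 came to 114 to 147 CPM in control, 161 to 294 CPM in vehicle and 160.2 to 363 CPM in hAAM livers. No marker of the list was at 0 in any liver. Of 10 markers of Kupffer cells, the resident macrophages of the liver, Marco alone was called with vehicle, at a log2 fold change of 1.68. Of the 10, 8 had log2 fold changes above 0, the median was 0.28, and the lowest was that of Clec4f, at -0.48 (FDR = 0.126). Their sum was 330.2 to 432 CPM in control, 357 to 629 CPM in vehicle and 377 to 531 CPM in hAAM livers, which overlap. Of 6 neutrophil markers none was called with vehicle, with 2 at an unadjusted p under 0.05. Of the other lists, 4 of 5 red cell markers, 3 of 6 endothelial markers and 3 of 6 stellate cell markers were called higher with vehicle, where 15.0% of all genes were, 1 red cell marker was called lower, and no marker of bile duct, B or T and NK cells was called. With hAAM, none of the red cell markers was called higher and 1 was called lower. Their median log2 fold change was 2.49 with vehicle and 2.21 with hAAM. With hAAM all 5 had an unadjusted edgeR p under 0.05, with FDRs up to 0.0699, and none was called between hAAM and vehicle. Their sum was 2025 CPM in vehicle replicate 5, where the vehicle median was 437 CPM. With hAAM, 2 endothelial and 3 stellate cell markers were called higher. With vehicle, of 10 hepatocyte markers 2 were called lower, Cyp2e1 and Hnf4a, 8 had log2 fold changes under 0, and the median was -0.35. The highest was that of Alb, the albumin gene that defines the tissue, at 0.15. With hAAM none of the 10 was called and the median was -0.08.

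The 4 lysosomal genes best known from leukocytes, Ctss, Cd68, Laptm5 and Atp6v0d2, summed to 57.5 to 67.6 CPM in control, 103 to 178 CPM in vehicle and 106 to 163 CPM in hAAM livers, without overlap with control. Ctss, Cd68 and Laptm5 each lay above control in every injured liver, so this sum is no further result. Atp6v0d2 overlapped control. Ctsc, described above, is not in the sum and was called in neither comparison (log2 fold changes -0.20 and -0.46). Without the 4 genes of the sum, 11 of 33 lysosomal genes (33.3%) were called with vehicle, 8 higher and 3 lower, where 29.8% of all genes were. With hAAM 10 of the 33 (30.3%) were called, where 20.7% of all genes were, and the median log2 fold changes were 0.09 and 0.15. The part of macrophage number in these rises was not tested.

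**Figure D5:**
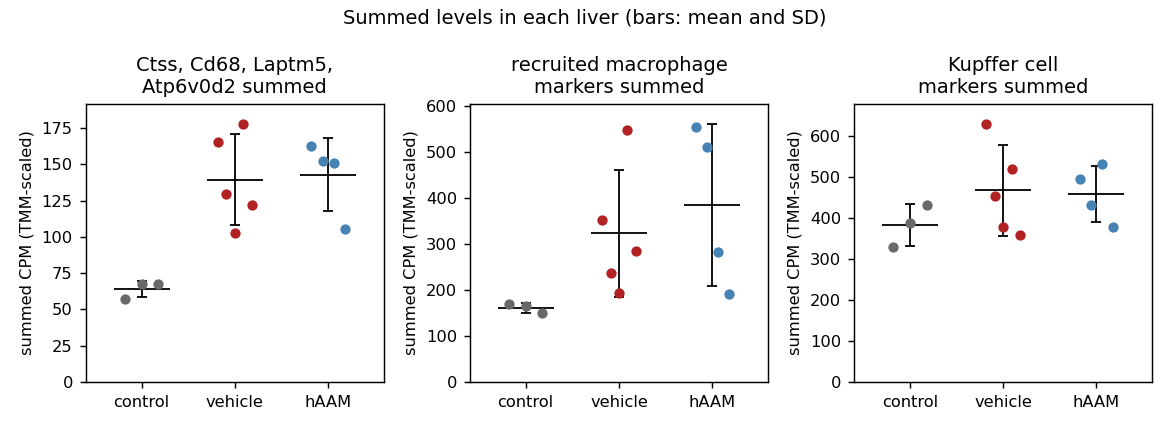
Summed CPM in each liver of the 4 lysosomal genes best known from leukocytes (left), 11 recruited macrophage markers (middle) and 10 Kupffer cell markers (right), with the group mean and SD as bars. The injured livers lie above control in the left and middle panels and overlap it in the right one. In the left panel this follows from Ctss, Cd68 and Laptm5, each of which lay above control in every injured liver.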

How the data were processed

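The deposited values were the authors' raw counts per Ensembl gene for 12 livers. Per the labels and the methods, the authors trimmed reads from directional, rRNA-depleted libraries with Cutadapt 4.6, aligned them to GRCm38 with STAR 2.7.1a and counted them with summarizeOverlaps. The counting mode and strand setting are not given in the sources used here, so genes that overlap may have exchanged or lost reads. The labels mention 14 libraries, of which 12 were analysed here.

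Counts were analysed in R 4.3.3 with edgeR 4.0.16 (filterByExpr by group, TMM, glmQLFit and glmQLFTest in 1 fit of all 12 livers, two-sided, Benjamini-Hochberg over 22581 genes). The biological coefficient of variation was 0.214. CPM used TMM-scaled library sizes, and CPM per kb used the union of annotated exons. The fit was also run on simulated data of vehicle against control, with 22225 genes, of which 100 were changed 2-fold and 100 4-fold. It called 67% of the genes changed 2-fold and 96% of those changed 4-fold. In the livers themselves far more genes were called with vehicle (29.8%), and most lysosomal genes differed by less than 2-fold, which was not simulated. These shares therefore do not give the power for such smaller changes. Symbols and coordinates came from GENCODE M21 (24128 of 24187 genes) and promoters from RefSeq.

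The 37 genes and all lists were chosen with earlier results of these data known. Genes described in every liver were the 8 largest rises and 4 largest falls past the threshold against control in each injured group (fewer falls passed), the 3 smallest p between treatments, and Lamp1, Lamp2, Tfeb, Ctsb, Ctsd, Ctsl and Cd68. Of each list of other lysosomal genes, the 2 largest rises and falls past the threshold with vehicle were named, except 1 gene that is not reported here, with Atp6v0d1, Tfe3, Mitf and Lyz2. Further genes were named after their values were seen. Alternatives were DESeq2 1.42.0, RLE factors, library size alone, no filter or at least 10 counts in every liver, only the 2 groups compared, the replicate number as a block, the near-identical pair left out, and each liver left out in turn. The p-values test a difference between groups against the spread between these livers.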

Additional observations from a re-analysis of the deposited data

Results flagged for a closer look

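In 4 of the 74 sets of livers tested (each of the 37 genes in the vehicle and in the hAAM livers), 1 liver lay far from the rest of its group by Dixon's criterion on log2 CPM, which chance alone meets in about 1 in 20 sets. Ctsa was at 179 CPM in hAAM replicate 3 and at 129 to 132 CPM in the other hAAM livers. Ctsc was at 80.5 CPM in hAAM replicate 4, where the others had 99.3 to 103 CPM. Tpp1 was at 100.4 CPM in hAAM replicate 1, where the others had 94.5 to 95.4 CPM. Scarb2 was at 238 CPM in vehicle replicate 4, where the others had 209 to 216 CPM. On CPM without the log, a scale added after the data were seen, the criterion picked 6 sets, these 4 and 2 more. Atp6v0d2 was at 6.89 CPM in vehicle replicate 3 and at 0.769 to 1.72 CPM in the other vehicle livers, and Ctsc at 177 CPM in vehicle replicate 4, where the others had 86.6 to 112 CPM.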

How the results depend on the processing

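The counts of called lysosomal genes moved most with the scaling. With library size alone, 27 of the 37 were called with vehicle and 24 with hAAM, and of the 97 other lysosomal genes 66 and 58. With only the 2 groups compared in the fit, 17 of the 97 were called with hAAM. The replicate numbers do not pair the livers (the correlation of the deviations of same-numbered livers ran from -0.458 to 0.385), and with the number as a replicate block 9 of the 37 were called with vehicle, and of the 97 others 26 with vehicle and 20 with hAAM. Of the genes described, the block left Ctss and Laptm5 uncalled in both comparisons with control, and Lamp1, Lamp2 and Neu1 with vehicle. With DESeq2 and the near-identical pair left out, 1 of the 97 was called between hAAM and vehicle. Leaving out 1 liver at a time gave 11 to 15 of the 37 with vehicle and 9 to 14 with hAAM, and of the 97 others 26 to 46 and 17 to 37, and 0 of either between the treatments. The cause was not tested beyond the fewer samples in these fits. For the comparisons with control, calls over all genes are given here for the main fit and library size alone. In the other alternatives, a change in count particular to the lysosomal genes therefore cannot be told from one shared by all genes.

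Of the lysosomal genes described in every liver, signs turned for genes that were not called, apart from Lamp1. With library size alone, the log2 fold changes with vehicle were 0.0694 in Lamp1, 0.31 in Ctsl, 0.34 in Npc2 and 0.23 in Atp6v0d2, and with hAAM 0.0567 in Lamp1. With the replicate block, Ctsl was at 0.005 and Npc2 at 0.0686 with vehicle. With at least 10 counts in every liver Npc2 was at 0.0084 and without the near-identical pair at 0.0032. Leaving out 1 liver, the values with vehicle ran from -0.0585 to 0.0531 in Npc2, from -0.0791 to 0.0664 in Ctsl and from -1.01 to 0.56 in Atp6v0d2, and with hAAM from -0.0595 to 0.13 in Ctsl. Of the 37 genes Ctsk had the fewest counts, 31 to 126 per liver.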
